A study of Aspergillus nidulans with 12 samples.

Results

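The 87 genes described here are those of Aspergillus nidulans whose transcripts were far more abundant at the late harvest than at 17 h in all 3 strains of the study, at late levels that stayed close between strains. They were chosen by the counts themselves, out of 10681 genes. In each strain the mean of the 2 late cultures had to reach 20 CPM (counts per 1000000 counts of the library) and 8 times the mean of the 2 cultures at 17 h, and the 3 late means had to lie within 4-fold of each other. Values of late against 17 h, and of one strain against another at the late harvest, are therefore a description with no test. Of the members only the comparison of strains at 17 h was tested, and this is not fully independent of the choice, since the rule also caps each 17 h mean at an eighth of the late mean of its strain.

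Poly(A) RNA was sequenced from duplicate liquid cultures grown at 37 °C in minimal medium that held 50 mM glucose as carbon source and 10 mM nitrate as nitrogen source. Cultures of drim2.4, labelled as a rimO deletion, were harvested at 17 h and 54 h, those of Oegr, labelled as rimO overexpression, at 17 h and 48 h, and those of A1153, the wild type, at 17 h and 48 h, which gives 12 libraries in 6 groups of 2. All groups shared the medium, and late cultures were taken 8 h after glucose was used up, which came later in the deletion strain because it takes up glucose more slowly, per the labels. The late harvests thus differ by 6 h between strains, and strain and hour cannot be told apart there. The series title calls RimO a homolog of Rim15p. The sources used here do not say whether a strain is 1 clone or which promoter drives the overexpression, and p-values measure the spread between duplicate cultures only.

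Rim15p of budding yeast is a protein kinase held in check by nutrient-signalling kinases, and it becomes active when glucose or other nutrients run out and cells stop growing. A filamentous fungus that has used up its glucose stops extending its hyphae, turns to other carbon sources and to its own cell material, and in the presence of air may form spores. Of the 87 members, 84 had an entry in the reference gene table of assembly ASM1142v1 and 2 had a symbol there, AN9121 (esdC, named for early sexual development) and AN2810 (admA). The other members are given by their identifiers, without a role.

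Libraries held 9269951 to 17891416 counts. AN7572, which was taken for rimO from general knowledge since no file or reference table names it, averaged 57.2 CPM in the deletion-labelled strain, 499 CPM in the overexpression-labelled strain and 89.1 CPM in wild type at 17 h. At the late harvest its means in these strains were 53.5, 401 and 501 CPM. Reads thus remained in the libraries labelled deletion, and at 48 h those labelled overexpression held less AN7572 than wild type, so groups are called by their labels throughout. Since RNA was taken from whole cultures, fewer cells of a kind and less RNA per cell cannot be told apart.

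Each strain on its own had many more genes with late means of at least 20 CPM and 8 times the 17 h mean: 460 in the deletion-labelled strain (4.31% of all genes), 625 in the overexpression-labelled strain (5.85%) and 702 in wild type (6.57%). In all 3 strains at once 135 genes met these conditions (1.26%), and 87 of them (0.815% of all genes) also had late means within 4-fold. Of the 48 genes left out by the last condition, 40 were lowest and 7 were highest in the deletion-labelled strain. The members are thus the portion of the genes induced in all 3 strains whose late levels were comparable.

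Members lay close to each of the 3 thresholds. At the level threshold AN9162, AN11187 and AN7669 were just inside with lowest late means of 20.8, 20.9 and 20.9 CPM, and AN10937, AN4914 and AN9177 were just outside with 19.6, 18.9 and 18.5 CPM. At the threshold on the smallest ratio of late over 17 h means, AN10952, AN7583 and AN7669 were just inside with 8.06, 8.13 and 8.28, and AN4088, AN10123 and AN1809 just outside with 7.94, 7.92 and 7.74. At the threshold on the ratio of highest to lowest late mean, AN11981, AN7635 and AN9007 were just inside with 3.83, 3.81 and 3.55, and AN5373, AN7264 and AN2425 just outside with 4.10, 4.30 and 4.40. Genes that failed 1 condition alone numbered 194 for the level, 4520 for the ratio and 48 for the spread.

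Together the members made up a trace of the library at 17 h and several percent of it late. Their summed level at 17 h was 750 and 740 CPM in the 2 cultures of the deletion-labelled strain, 1475 and 1389 CPM in those of the overexpression-labelled strain, and 679 and 665 CPM in those of wild type. At the late harvest the sums were 24808 and 24646 CPM in the deletion-labelled strain, 48363 and 46993 CPM in the overexpression-labelled strain, and 40696 and 42745 CPM in wild type. No culture of one strain overlapped those of another in either harvest, with the overexpression-labelled strain highest in both and the deletion-labelled strain lowest only at the late one. Late sums correspond to 2.48% and 2.46% of all counts in the deletion-labelled strain, 4.84% and 4.70% in the overexpression-labelled strain and 4.07% and 4.27% in wild type.

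Much of these sums came from AN8781, AN10356 and esdC. The 3 genes held 10000 and 10027 CPM in the late cultures of the deletion-labelled strain, 27582 and 27304 CPM in those of the overexpression-labelled strain and 23879 and 25712 CPM in those of wild type. The other 84 members summed to 14808 and 14619 CPM in the deletion-labelled strain, 20780 and 19689 CPM in the overexpression-labelled strain and 16818 and 17033 CPM in wild type. Without the 3 genes the order of the strains was the same, and the deletion-labelled strain lay nearer to wild type.

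**Figure D1:**
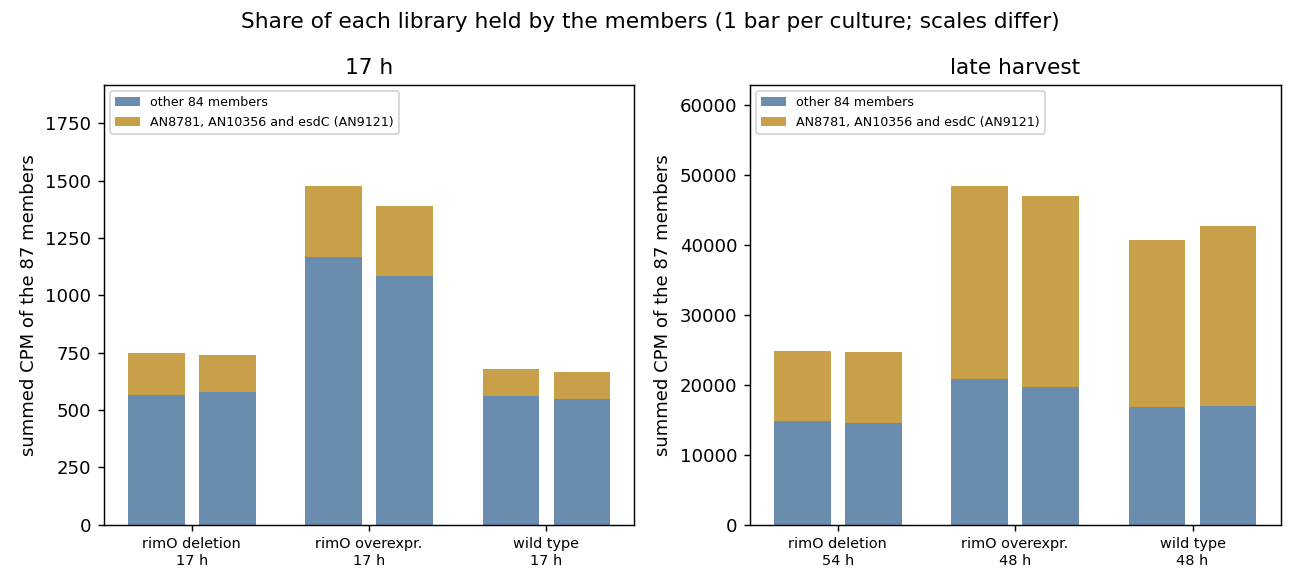
Summed CPM of the 87 members in each library (1 bar per culture), split into AN8781, AN10356 and esdC and the other 84 members, at 17 h (left) and at the late harvest (right); the 2 vertical scales differ. The overexpression-labelled strain has the tallest bars at 17 h (1475 and 1389 CPM), and the deletion-labelled strain the shortest at the late harvest (24808 and 24646 CPM).

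The median member stood at 3.70 CPM at 17 h and 96.8 CPM late in the deletion-labelled strain, at 4.80 and 145 CPM in the overexpression-labelled strain and at 3.05 and 116 CPM in wild type. The median ratio of late over 17 h means was 24.7, 24.1 and 35.5 in the same strains. All members passed the filter on low counts used for the tests, which looks at all 12 libraries, so that those with few counts at 17 h passed through their late levels. At 17 h 2 members had no count at all in the deletion-labelled strain and 1 had none in wild type, and 6, 1 and 5 members had 1 to 3 counts over the 2 cultures of the deletion-labelled, overexpression-labelled and wild type strains.

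**Figure D2:**
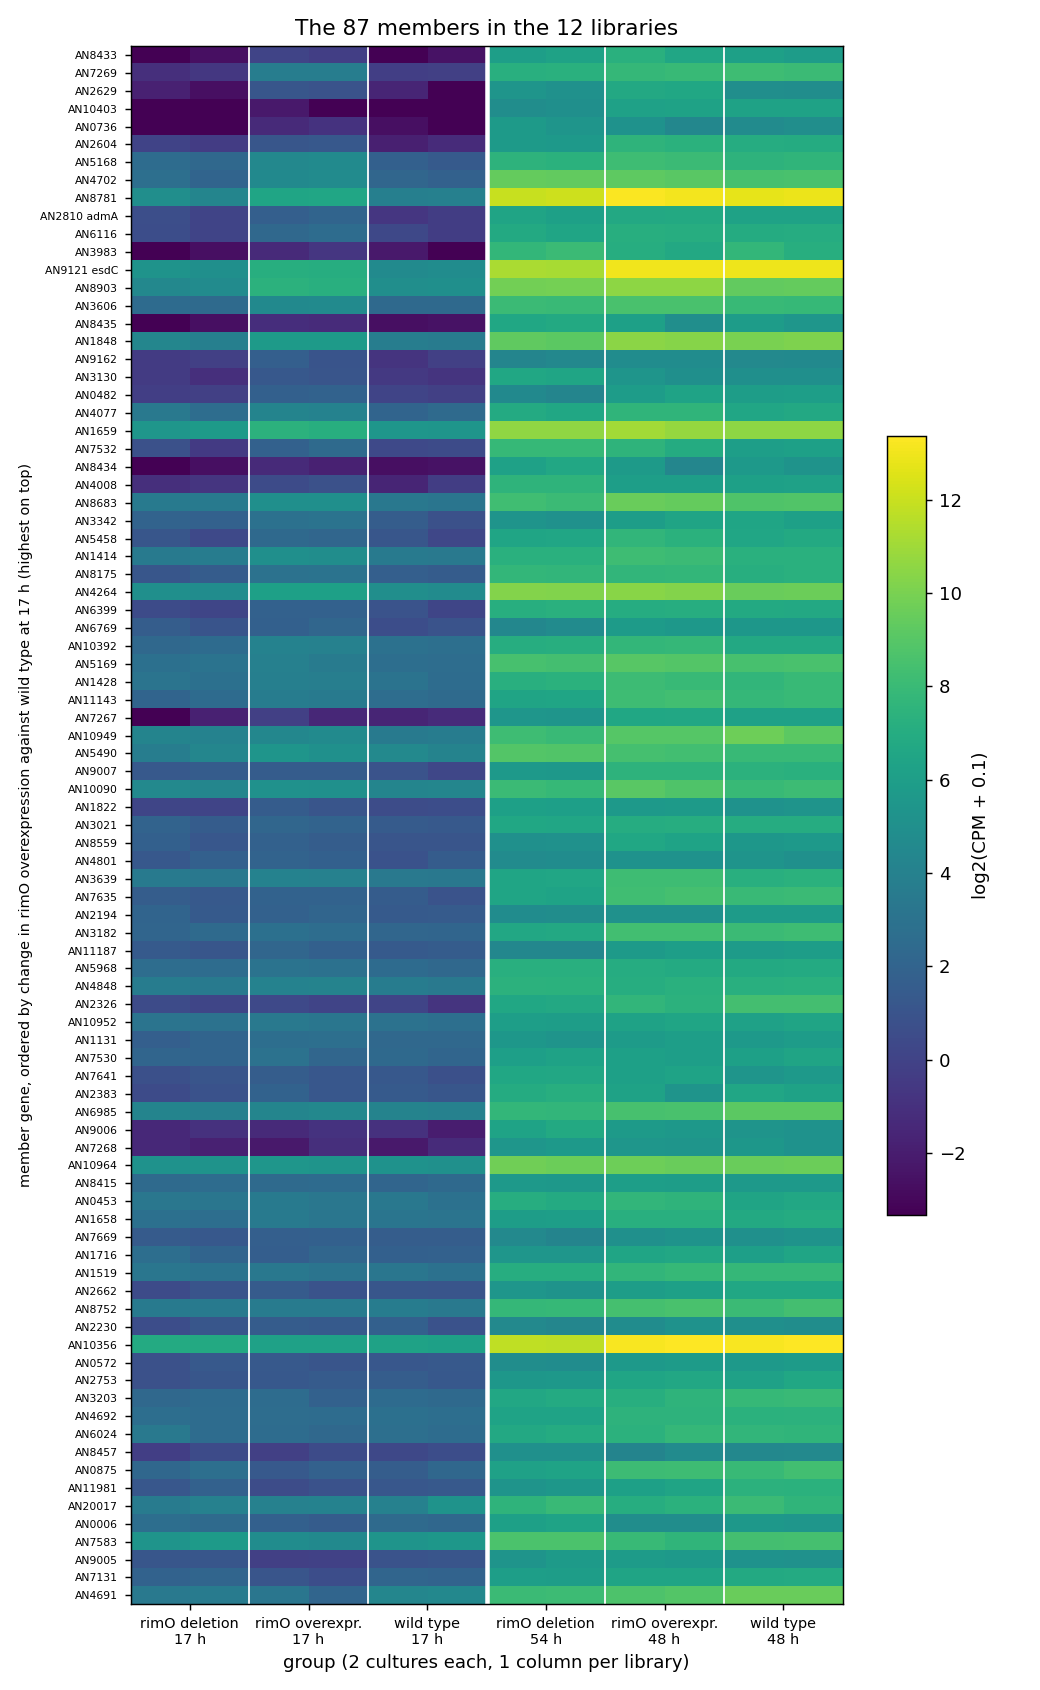
Level of each of the 87 members (rows) in each of the 12 libraries (columns) as log2(CPM + 0.1), ordered from top to bottom by the change in the overexpression-labelled strain against wild type at 17 h. The late columns on the right are lighter than the 17 h columns on the left in every row, as the choice of members requires, and in the upper rows the overexpression-labelled columns at 17 h are lighter than the columns on both sides of them.

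Levels can be compared between genes through the log2 RPKM (reads scaled to gene length and library size) that the authors deposited per group. Averaged over the 3 late groups, the authors' values were highest for AN8781 at 12.48, AN10356 at 11.89 and esdC at 11.38. AN20017 followed at 9.70, AN1659 at 9.56, AN4264 at 8.92, AN8903 at 8.86, AN1848 at 8.61, AN4691 at 8.41 and AN4702 at 8.36. The first 3 genes thus stood well above the others on this scale per length.

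AN8781, the member with the highest late level per length, reached 4056 and 4306 CPM in the late cultures of the deletion-labelled strain, 9820 and 8597 CPM in those of the overexpression-labelled strain and 6815 and 7465 CPM in those of wild type. At 17 h it had 29.8 and 19.2 CPM in the deletion-labelled strain, 91.8 and 92.8 CPM in the overexpression-labelled strain and 15.0 and 15.2 CPM in wild type. The strains did not overlap at either harvest, and the deletion-labelled strain was above wild type at 17 h and below it late.

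AN10356 had 3510 and 3371 CPM in the late cultures of the deletion-labelled strain, 9340 and 10609 CPM in those of the overexpression-labelled strain and 9288 and 10394 CPM in those of wild type. At 17 h it was the member with the highest level in CPM in the deletion-labelled strain, at 115 and 113 CPM, with 74.9 and 73.5 CPM in the overexpression-labelled strain and 77.5 and 72.9 CPM in wild type. The overexpression-labelled strain overlapped wild type at both harvests, whereas the deletion-labelled strain was apart from it at both, higher at 17 h and lower late.

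The gene esdC, whose name stands for early sexual development, had 2434 and 2350 CPM in the late cultures of the deletion-labelled strain. It had 8422 and 8098 CPM in the late cultures of the overexpression-labelled strain and 7775 and 7853 CPM in those of wild type. At 17 h its levels were 37.8 and 31.2 CPM in the deletion-labelled strain, 139 and 138 CPM in the overexpression-labelled strain and 25.0 and 27.5 CPM in wild type. No 2 strains overlapped at either harvest, and late the deletion-labelled strain had 0.306 of the wild type mean, the third lowest such ratio among the members.

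The ratio of late over 17 h means was largest, by its smallest value over the 3 strains, for AN3983, whose cultures of the overexpression-labelled strain had 0.301 and 0.513 CPM early and 137 and 108 CPM late, a ratio of 300. In that strain the ratio was 193 for AN7267, 171 for AN7268, 151 for AN8434, 149 for AN8435 and 144 for AN8433, which stand in 2 runs of neighbouring genes described further on. AN9006 had its smallest ratio in wild type, at 136, and AN2326 in the deletion-labelled strain, at 87.0. Most of these genes had fewer than 1 CPM at 17 h, so that the ratios rest on few counts there. AN10403 had no count at 17 h in the deletion-labelled strain or in wild type, and against a floor of 3 counts over the group it was at least 274-fold higher late in the first and at least 772-fold higher in the second. Floors and intervals of this kind cover counting error only.

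At the late harvest the members were spread over the range that the rule allows. Of the 87 genes, the highest mean was in the deletion-labelled strain for 21, in the overexpression-labelled strain for 45 and in wild type for 21, and the lowest mean was in the same strains for 50, 11 and 26. The deletion-labelled strain had a median of 0.809 of the wild type mean. It held at least 2 times the wild type mean for 7 members (19.0% of the genes with at least 20 CPM in either group did) and at most 0.5 times for 20 members (18.0% of those genes did). Both of its cultures were above both of wild type for 29 members (40.8% of those genes), below for 47 (51.4%), and overlapped for 11.

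The overexpression-labelled strain lay closer to wild type. It had a median of 1.13 of the wild type mean at 48 h, with at least 2 times that mean for 5 members (3.22% of the genes with at least 20 CPM in either group) and at most 0.5 times for 1 member (5.49%). Both of its cultures were above both of wild type for 46 members (48.7%), below for 16 (29.0%), and overlapped for 25. The comparisons share the wild type libraries, and the spread condition bounds both. On the log2 scale the median member was at -0.31 in the deletion-labelled strain and 0.17 in the overexpression-labelled strain against wild type, where all genes over 1 CPM had medians of -0.15 and 0.11.

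The members that were most unequal at the late harvest were mostly low in the deletion-labelled strain. AN11981 had late cultures at 39.9 and 46.3 CPM in the deletion-labelled strain, 73.0 and 85.4 CPM in the overexpression-labelled strain and 170 and 160 CPM in wild type, a highest mean 3.83 times the lowest. AN7635 (89.1 and 84.0 CPM, 308 and 352 CPM, and 251 and 265 CPM in the same order of strains) had a ratio of 3.81, and AN9007, AN0875 and AN11143 had 3.55, 3.54 and 3.48. In each of these 5 genes the deletion-labelled strain was the lowest of the 3.

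Other members were higher in the deletion-labelled strain. AN7532 had 231 and 235 CPM there, 188 and 121 CPM in the overexpression-labelled strain and 65.0 and 71.2 CPM in wild type, so that the deletion-labelled mean was 3.42 times that of wild type. AN3130 had 98.7 and 90.8 CPM in the deletion-labelled strain, 42.3 and 31.4 CPM in the overexpression-labelled strain and 32.4 and 31.2 CPM in wild type, a ratio of 2.98. AN2629 was instead highest in the overexpression-labelled strain, with 106 and 101 CPM there, 41.0 and 34.3 CPM in the deletion-labelled strain and 30.3 and 29.2 CPM in wild type.

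At the other end, 5 members had late means that hardly differed. AN10964 had 845 and 782 CPM in the deletion-labelled strain, 811 and 757 CPM in the overexpression-labelled strain and 763 and 781 CPM in wild type, a highest mean 1.05 times the lowest, with overlapping cultures. AN4848, AN7268, AN7530 and AN1659 had ratios of 1.12, 1.14, 1.16 and 1.28. AN1659, with late means of 1546 CPM in the deletion-labelled strain, 1912 CPM in the overexpression-labelled strain and 1496 CPM in wild type, is among the 10 highest members per length.

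**Figure D3:**
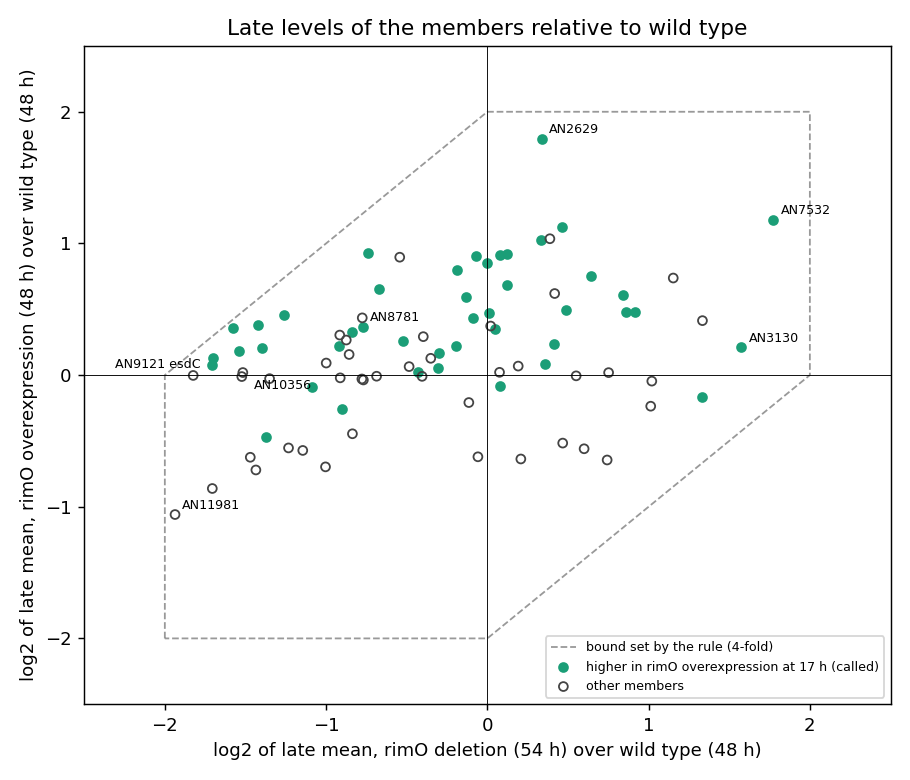
Late mean of each member relative to wild type on the log2 scale, the deletion-labelled strain at 54 h along the horizontal axis and the overexpression-labelled strain at 48 h along the vertical axis, with the bound that the rule sets. Filled points are the 44 members that rose in the overexpression-labelled strain at 17 h; they lie on both sides of 0 along each axis, and the points reach farther along the horizontal axis than along the vertical one.

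Markers of asexual spore formation differed greatly between the late groups. The 7 conidiation genes examined (among them brlA, the switch to spore formation, and rodA, a spore-wall hydrophobin) summed to 18.0 and 19.0 CPM late in the deletion-labelled strain, 4563 and 4683 CPM in the overexpression-labelled strain and 1123 and 1800 CPM in wild type, with no marker at 0. The sum was mostly rodA in the overexpression-labelled strain and wild type, but not in the deletion-labelled strain. Late means of rodA were 0.680 CPM in the deletion-labelled strain, 4241 CPM in the overexpression-labelled strain and 1218 CPM in wild type. The spore-wall gene dewA had 0.657, 5.93 and 8.25 CPM and pksP, of the spore pigment, 3.13, 10.6 and 11.3 CPM in the same strains, so that the order of the overexpression-labelled strain and wild type differed between markers. The sexual development marker nsdD had late cultures at 350 and 329 CPM, 225 and 179 CPM, and 132 and 135 CPM in the same order of strains. The growth marker niaD (nitrate reductase) had 45.1 and 51.9 CPM, 0.894 and 0.755 CPM, and 0.650 and 0.322 CPM. Both were thus highest late in the deletion-labelled strain. The part of these markers in the members' late levels was not tested. At 17 h the conidiation genes summed to 17.8 and 16.4 CPM, 18.2 and 17.1 CPM, and 17.7 and 14.9 CPM in the same strains.

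The strains were compared at 17 h, during growth on glucose, to ask whether genes of the late response differ before the glucose is used up. More members were higher than lower in the overexpression-labelled strain against wild type. Of the 87 members 44 rose and 5 fell, and 38 were not called (edgeR quasi-likelihood test, Benjamini-Hochberg adjusted p under 0.05 over 9670 genes); over all genes tested 15.1% rose and 14.5% fell. Of the 86 members with at least 10 counts in the 2 groups, 44 rose and 5 fell. The median log2 change of the members was 0.60, against 0.03 over all genes tested. Of the members 30 rose by at least 2-fold, and both cultures were above both of wild type in 58 and below in 8. These last counts were not made over all genes, so they describe the members alone.

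As a description that the rule bounds, the 44 risen members had reached at 17 h a median of 6.58% of their wild type mean at 48 h, with a range of 1.29% to 23.5%, where wild type itself stood at a median of 1.91%. Choosing the genes by the level and ratio conditions in the deletion-labelled strain alone, which uses neither of the strains compared, gave the 460 genes counted above, of which 167 (36.3%) rose and 44 (9.57%) fell. Choosing them without the overexpression-labelled strain gave 139 genes, of which 75 (54.0%) rose, and choosing them without wild type gave 100 genes, of which 48 (48.0%) rose. These choices were made after seeing the data, all 3 sets hold the 87 members, and the sets of 139 and 100 genes still use 1 of the strains compared. Of the 48 genes that failed the spread condition alone, 27 rose and 3 fell, and of the 615 genes that met the level and ratio conditions in wild type and are no members, which include those 48, 205 (33.3%) rose and 31 fell.

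AN7269 showed the largest rise among members with more than a few counts. It had 13.6 and 13.4 CPM at 17 h in the overexpression-labelled strain and 0.760 and 0.787 CPM in wild type, a log2 change of 4.02 ± 0.19 (SE; edgeR adjusted p = 1.98e-09), and 0.375 and 0.552 CPM in the deletion-labelled strain. At the late harvest, in contrast, it was somewhat lower in the overexpression-labelled strain (222 and 248 CPM) than in wild type (291 and 271 CPM). AN8433 had a fitted change of 4.33 ± 1.33, but this rests on 1 count in wild type and 28 in the overexpression-labelled strain, and the call was lost under 5 alternatives (adjusted p of 0.00303 to 0.175 over them all).

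Of the 10 members highest per length 7 rose, AN4691 fell, and AN10356 and AN20017 were not called. AN8781 had a log2 change of 2.51 ± 0.16 (edgeR adjusted p = 4.17e-08) and esdC one of 2.30 ± 0.10 (adjusted p = 1.5e-09), with the 17 h levels given above and no overlap between the strains. AN8903 stood at 172 and 147 CPM in the overexpression-labelled strain and 31.0 and 31.5 CPM in wild type (2.25 ± 0.11, adjusted p = 2.83e-09). AN10356 changed by -0.12 ± 0.09 (adjusted p = 0.348). AN20017 had 16.2 and 17.2 CPM in the overexpression-labelled strain and 16.4 and 38.1 CPM in wild type (-0.78 ± 0.31, adjusted p = 0.0754).

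AN1659 had 168 and 142 CPM in the overexpression-labelled strain and 43.1 and 41.3 CPM in wild type at 17 h (1.78 ± 0.13, edgeR adjusted p = 2.87e-07). AN1848 had 54.1 and 54.7 CPM in the overexpression-labelled strain and 13.5 and 12.1 CPM in wild type, and AN4264 had 72.4 and 71.5 CPM against 30.7 and 26.6 CPM. AN4702 had 24.7 and 26.5 CPM in the overexpression-labelled strain and 4.38 and 3.62 CPM in wild type. All 4 genes, which are among the 10 highest members per length, were called with both cultures well above those of wild type.

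Among less abundant members, AN5168 had 22.4 and 24.9 CPM in the overexpression-labelled strain and 3.45 and 2.60 CPM in wild type (2.84 ± 0.14, edgeR adjusted p = 4e-09). AN2629 had 2.11 and 1.86 CPM against 0.234 and 0 CPM (3.72 ± 0.51, adjusted p = 8.63e-05), and AN2604 had 2.11 and 2.37 CPM against 0.175 and 0.315 CPM (3.12 ± 0.36, adjusted p = 1.74e-05). The wild type groups held 4 and 7 counts of these 2 genes, so that the sizes of their changes are uncertain. The gene admA had 3.26 and 4.10 CPM against 0.526 and 0.708 CPM (2.49 ± 0.27), and AN1414, which had been entered in a list of autolysis genes without a symbol in the reference table, had 31.2 and 29.6 CPM against 11.0 and 10.9 CPM (1.37 ± 0.11).

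The 5 members that fell in the overexpression-labelled strain at 17 h were AN4691, AN7131, AN9005, AN7583 and AN0006. AN4691 had 9.17 and 4.23 CPM there and 20.2 and 22.0 CPM in wild type (-1.74 ± 0.21, edgeR adjusted p = 3.49e-05), and AN7131 had 1.99 and 1.47 CPM against 4.27 and 3.86 CPM (-1.33 ± 0.18, adjusted p = 8.94e-05). AN9005 changed by -1.31, AN7583 by -0.81 and AN0006 by -0.79. By limma-voom AN9005 was no longer called (adjusted p = 0.102). The calls of AN9005 and AN0006 were lost without the second overexpression-labelled culture, which left 3 members called lower, that of AN9005 also without any 1 of the other 3 cultures compared, and that of AN0006 also without the first wild type culture (adjusted p = 0.0803).

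In the deletion-labelled strain few members differed from wild type at 17 h beyond the spread of the cultures. Of the 87 members 1 rose and 1 fell by the same edgeR test, where 0.362% of all genes rose and 1.3% fell. An unadjusted p under 0.05 was found for 17 of the 87 members and for 1143 of the 9670 genes tested. Of the 80 members with at least 10 counts in the 2 groups 1 rose and 1 fell. The median log2 change was 0.01. AN10356 rose by 0.53 ± 0.09 (adjusted p = 0.00867, both cultures higher), and AN4691 changed by -0.93 ± 0.20 (adjusted p = 0.0371), with 10.9 and 12.1 CPM in the deletion-labelled strain and 20.2 and 22.0 CPM in wild type.

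Both calls in the deletion-labelled strain were lost when single libraries were left out, which leaves a group with 1 culture whose spread is taken from the other groups. The call of AN10356 was lost without either wild type culture at 17 h (adjusted p = 0.0789 and 0.139) and without the first deletion-labelled culture (0.0779), with changes of 0.50 to 0.56. The call of AN4691 was lost without any 1 of the 17 h cultures compared (adjusted p of 0.111 to 0.295, changes of -0.84 to -1.04), without either late deletion-labelled culture (0.0587 and 0.0548), under a replicate block (0.0603) and by DESeq2 (0.0884). DESeq2 called 4 members higher.

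The 2 strains were also set against each other at 17 h, a comparison added after seeing the data. In the overexpression-labelled strain 41 members rose and 8 fell against the deletion-labelled strain, where 15.6% and 14.9% of all genes did (edgeR, adjusted p under 0.05). The median log2 change was 0.63, and 36 members rose against both the deletion-labelled strain and wild type. Among them AN7269 rose by 4.75 ± 0.21, AN8903 by 2.67 ± 0.11, AN5168 by 2.11 ± 0.13, esdC by 1.98 ± 0.10 and AN8781 by 1.90 ± 0.15, whereas AN10356 changed by -0.65 ± 0.09 (adjusted p = 9.02e-05).

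**Figure D4:**
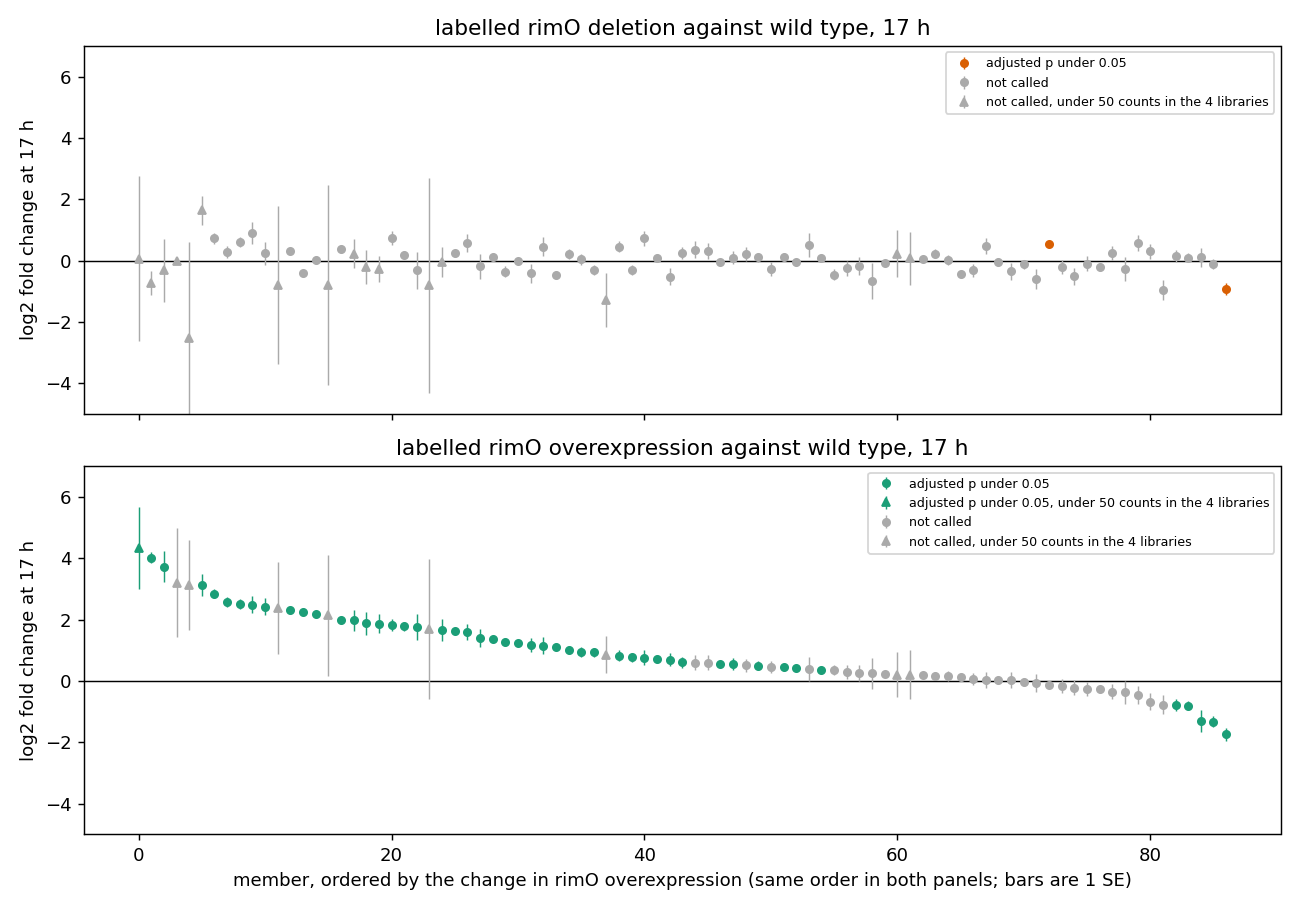
Log2 fold change of each member at 17 h with 1 SE, in the deletion-labelled strain (top) and the overexpression-labelled strain (bottom) against wild type, in the same gene order; coloured points have an adjusted p under 0.05 and triangles mark genes with under 50 counts in the 4 libraries (1 bar at the lower left runs beyond the axis). In the lower panel 44 points are called above 0 and 5 below it, and in the upper panel 1 is called on each side.

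The risen members included genes of every late pattern. In the overexpression-labelled strain at 17 h, 3 of the 7 members with at least 2 times the wild type late mean in the deletion-labelled strain rose, as did 9 of the 20 with at most 0.5 times that mean and 32 of the 60 between.

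Other transcripts moved in the overexpression-labelled strain at 17 h as well. Of 9 genes of amino acid breakdown, 6 fell and 1 rose. The proline catabolism gene prnD had 0.724 and 0.705 CPM in the overexpression-labelled strain and 919 and 849 CPM in wild type, and niaD, which encodes nitrate reductase, had 1158 and 1228 CPM against 798 and 806 CPM. Their part in the members' change was not tested.

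No gene of the pathway lists that could be matched by symbol was a member. The 9 lists held 53 such genes for the use of other carbon and nitrogen sources, stress defence, development and nutrient signalling, and 0 of them met the whole rule, which 0.815% of all genes met. Only 2 of the 87 members have a symbol, so matching by symbol could have found at most these 2. Late against 17 h, by the same edgeR test (adjusted p under 0.05), 26 rose and 19 fell in the deletion-labelled strain (41.3% and 39.3% of all genes did), 35 rose and 13 fell in the overexpression-labelled strain (38.2% and 43.6%), and 34 rose and 17 fell in wild type (40.3% and 43.0%). Starvation here means only the labelled glucose depletion.

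The lists differed among themselves. All 3 fatty acid oxidation genes rose in each strain, among them mfp, of peroxisomal beta-oxidation, which had 63.8 and 61.6 CPM late in the deletion-labelled strain, 309 and 285 CPM in the overexpression-labelled strain and 345 and 353 CPM in wild type. Of 4 genes of the glyoxylate cycle, gluconeogenesis and acetate use, 3, 2 and 3 rose in the deletion-labelled, overexpression-labelled and wild type strains and none fell, and of 3 genes of sexual development 3, 3 and 2 rose. Of 13 conidiation genes 4, 10 and 10 rose and 4, 2 and 3 fell.

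Of the 9 amino acid breakdown genes 5, 7 and 4 rose and 4, 1 and 5 fell in the same order of strains, and of 9 stress defence genes 4, 3 and 5 rose and 5, 5 and 4 fell. Of 6 nitrogen assimilation genes 2 rose in each strain and 3, 4 and 4 fell. The 3 nutrient-signalling kinase genes included 2 that fell and none that rose in the deletion-labelled strain, and all 3 rose in the other strains. Of 3 polysaccharide hydrolase genes 2 rose and 1 fell in each strain.

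Members were often next to each other in the gene order of the reference. Of the 84 members placed there, 19 stood in 8 runs, 3 of them with 3 genes and 5 with 2. A member held 22 of the 168 places beside a member (13.1%), where members were 0.843% of all ordered genes. Of the 145 neighbours that were no members, 15 met the level and ratio conditions in the deletion-labelled strain (10.3%; 4.37% of all ordered genes did), 19 in the overexpression-labelled strain (13.1%; 6.01%) and 22 in wild type (15.2%; 6.69%). The counting is not stated to use strand, so reads of neighbouring or overlapping genes may be shared.

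In the run AN7269, AN7268 and AN7267, the late means were 151, 47.1 and 43.4 CPM in the deletion-labelled strain, 235, 43.2 and 100 CPM in the overexpression-labelled strain and 281, 41.2 and 74.3 CPM in wild type. Of the genes around them AN7270, AN7266, AN7265 and AN7264 had lower late means in the deletion-labelled strain than in wild type. AN7270, AN7265 and AN7264, which failed the spread condition alone, had late means of 28.3, 30.0 and 71.4 CPM in the deletion-labelled strain, 195, 227 and 307 CPM in the overexpression-labelled strain and 152, 148 and 199 CPM in wild type. AN7266, inside the stretch, had 3.83, 48.0 and 41.2 CPM in the same strains. Farther out, AN7271 had 6.97, 39.1 and 31.1 CPM, whereas AN7272 had 23.8, 0.801 and 0.841 CPM in these strains and was thus highest in the deletion-labelled strain.

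At 17 h some genes of this stretch differed as well. In the overexpression-labelled strain AN7270, AN7269 and AN7264 averaged 2.68, 13.5 and 4.16 CPM, in the deletion-labelled strain 0.373, 0.464 and 0.557 CPM, and in wild type 0.293, 0.773 and 0.372 CPM, while AN7268 was at 0.253, 0.233 and 0.216 CPM in the same strains. AN7268 had at most 8 counts in each of these groups, which limits what can be seen there. AN7267 averaged 0.520, 0.0920 and 0.274 CPM in these strains. In the overexpression-labelled strain AN7267 was not called against wild type (edgeR adjusted p = 0.303) but was against the deletion-labelled strain (0.0433). AN7265 averaged 1.37, 0.0307 and 0 CPM in these strains and AN7266 0.0942, 0 and 0 CPM.

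In the run AN8433, AN8434 and AN8435, the strains were in different orders from gene to gene. AN8433 had late cultures at 66.7 and 77.5 CPM in the deletion-labelled strain, 155 and 95.9 CPM in the overexpression-labelled strain and 72.7 and 59.9 CPM in wild type. AN8435 had 99.3 and 113 CPM, 71.1 and 30.5 CPM, and 60.6 and 44.3 CPM in these strains, and AN8434 behaved like it, with 75.9 and 101 CPM, 54.0 and 20.6 CPM, and 49.5 and 38.4 CPM. The deletion-labelled strain was thus highest for AN8434 and AN8435, where the 2 cultures of the overexpression-labelled strain were more than 2-fold apart. The next gene on one side, AN8436, stayed below 1 CPM in all late groups.

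In the run AN9007, AN9006 and AN9005, the late means were 49.4, 96.8 and 47.7 CPM in the deletion-labelled strain, 175, 51.1 and 54.8 CPM in the overexpression-labelled strain and 161, 38.4 and 35.7 CPM in wild type. AN9007 was lowest and AN9006 highest in the deletion-labelled strain. Beside AN9007 stands fphA (AN9008), the gene of the fungal phytochrome, a red light receptor, which failed the ratio condition with late means of 125, 205 and 224 CPM and 17 h means of 70.9, 68.9 and 69.9 CPM in the same strains.

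The 5 pairs of neighbours were AN4692 with AN4691, AN10949 with AN7583, AN5168 with AN5169, AN11143 with AN8903 and AN1658 with AN1659. Of AN5168 and AN5169, both genes rose in the overexpression-labelled strain at 17 h (2.84 ± 0.14 and 1.01 ± 0.14; edgeR adjusted p = 4e-09 and 9.92e-05), and so did both of AN11143 and AN8903 (0.94 ± 0.14 and 2.25 ± 0.11). In the pair AN10949 and AN7583 the first rose by 0.82 ± 0.18 and the second changed by -0.81 ± 0.15, and of AN1658 and AN1659 only the second was called. Neighbours thus did not always move alike.

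**Figure D5:**
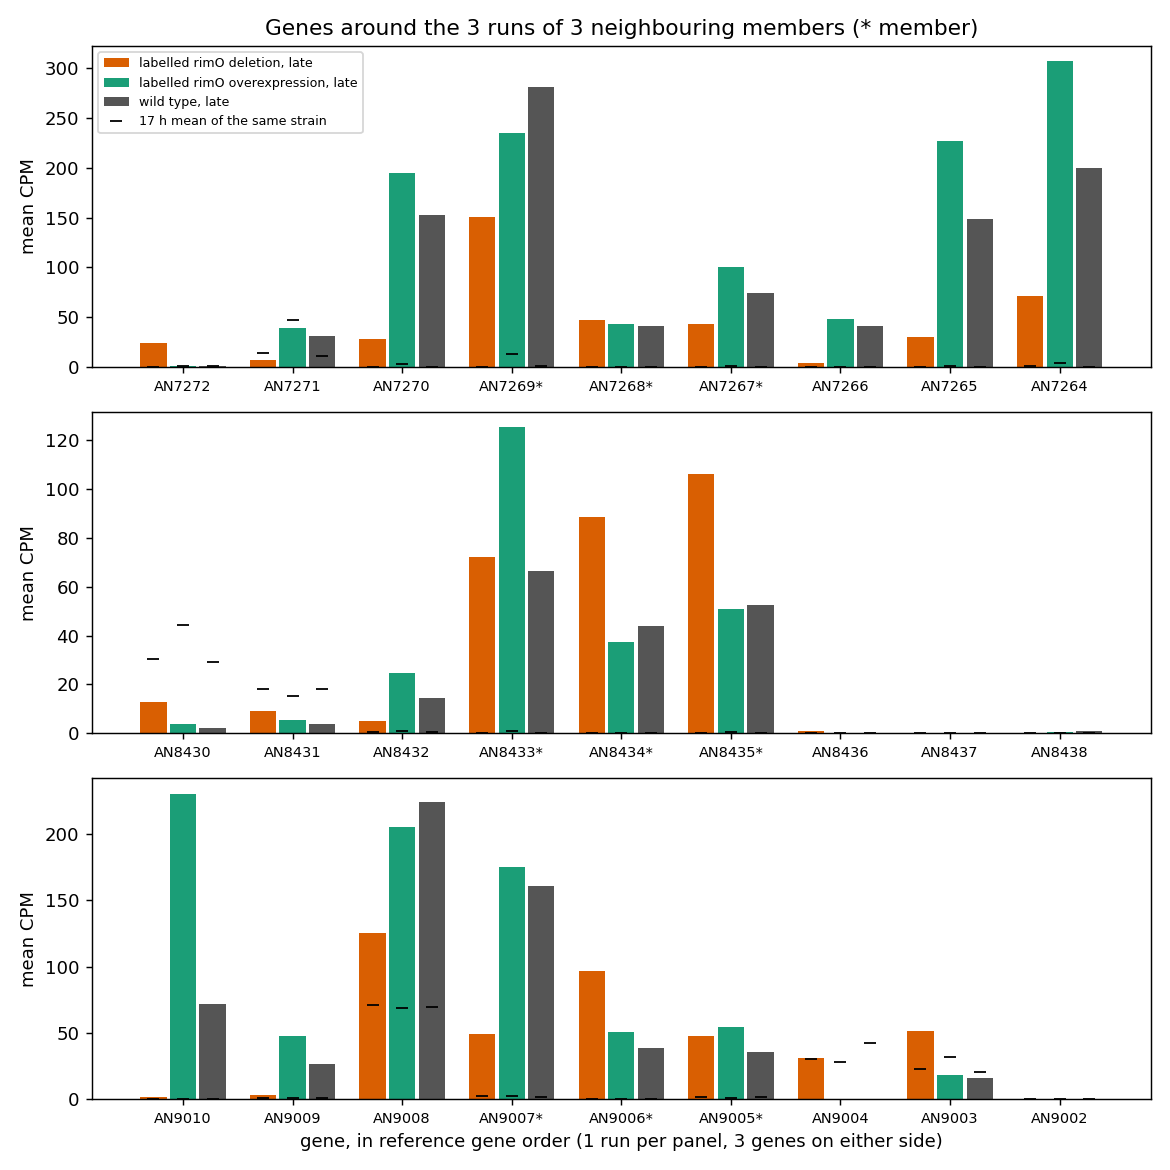
Mean CPM of the genes in and around the 3 runs of 3 neighbouring members (1 run per panel, members marked with a star), with bars for the late means of the deletion-labelled, overexpression-labelled and wild type strains and a black dash for the 17 h mean of the same strain. In the top panel the genes on both sides of the members (AN7270, AN7265 and AN7264) have late bars of 28.3, 30.0 and 71.4 CPM in the deletion-labelled strain and 152, 148 and 199 CPM in wild type.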

How the data were processed

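Counts per gene were deposited by the authors as whole numbers, 1 column per library. Per the submitters' processing notes, Trimmomatic, BWA, HTSeq, limma and edgeR were used, and their versions, the genome build and the strandedness are not given in the sources used here. The authors also deposited log2 RPKM values, 1 column per group, which were used only to compare levels between genes.

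Of 10727 entries, 15 repeated an identifier and 31 were upstream open reading frames, and both were left out. CPM is the count over the sum of the remaining genes. Members and lists were chosen with earlier results of these data known, and of 128 list entries 53 were used, those with a matching reference symbol in lists of at least 3 such genes. For the tests, edgeR (version 4.0.16 in R 4.3.3) fitted its quasi-likelihood model once to all 12 libraries in 6 groups (TMM, filterByExpr, 9670 genes, 6 residual and 7.73 prior degrees of freedom, Benjamini-Hochberg). The SE is the size of the log2 change over the square root of F, and is not an edgeR estimate. Cultures of a group differed by more than counting error (chi-square per degree of freedom of 9.31 to 42.3), with a common biological coefficient of variation of 8.20%. The edgeR step was tested on simulated data. Named members are the highest per length, those with the largest ratios, largest 17 h changes, widest and narrowest late spread, those at thresholds, in runs or with a symbol. Names were left out for length. AN8436, AN8432, AN7266, AN7270, AN7265, AN7271, AN7272 and fphA were named after their values were seen, as neighbours of members. Alternatives were other scalings (RLE, upper quartile), DESeq2, limma-voom, other filters, a replicate block, a fit of the 4 libraries compared and leaving out each library.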

Additional observations from a re-analysis of the deposited data

Results flagged for a closer look

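Among the 45 named members, in 12 cases a member was on one side of wild type at 17 h and on the other at the late harvest, in every culture of the strain and among genes with at least 10 counts per group at 17 h. The change of side between harvests was not tested in any of them, since late values chose the members. Of the genes listed next for the deletion-labelled strain, the 17 h difference from wild type was called for AN10356 alone (edgeR, adjusted p under 0.05). In the deletion-labelled strain, the ratio to the wild type mean was 1.52 at 17 h and 0.350 late for AN10356, 1.44 and 0.387 for AN10949, 1.38 and 0.559 for AN1848, 1.61 and 0.307 for AN2326, 1.63 and 0.586 for AN8781, 1.77 and 0.308 for AN9007, 1.31 and 0.306 for esdC (AN9121), and 0.779 and 1.38 for AN8903.

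In the overexpression-labelled strain, the ratio to the wild type mean was 17.4 at 17 h and 0.835 late for AN7269, 1.89 and 0.720 for AN10949, 0.886 and 1.07 for AN4692, and 0.428 and 1.54 for AN9005. The 17 h difference of AN4692 was not called (edgeR adjusted p = 0.130). Over all members with at least 10 counts per group at 17 h, 76 for each strain, 13 were above wild type at 17 h and below it late in the deletion-labelled strain and 5 were the other way round, and in the overexpression-labelled strain 5 and 2 were. The same counts were not made over all genes. Late, both deletion-labelled cultures were below both of wild type for 51.4% of genes with at least 20 CPM in either group, and above for 40.8%. All these ratios share the wild type libraries, and the late harvest of the deletion-labelled strain came 6 h after that of wild type.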

How the results depend on the processing

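The number of members was 49 at 16 times in place of 8 times, 56 at 50 CPM in place of 20, 43 with late means within 2-fold, and 84 to 91 with 1 library left out. It was 70 with TMM and 72 with RLE library sizes, and 74 if every culture had to meet the level and ratio conditions. The sets below differ in size. In the deletion-labelled strain against wild type, 0.48% rose and 0.48% fell of the 625 genes chosen in the overexpression-labelled strain alone (members 1.15% each). In the overexpression-labelled strain against the deletion-labelled strain, 33.9% rose and 7.83% fell of 702 genes chosen in wild type alone (members 47.1% and 9.20%). In the deletion-labelled strain against wild type at 17 h, the 1 member that rose became 4 by DESeq2, 2 among genes chosen without the overexpression-labelled strain, 3 among genes chosen in that strain alone and 0 to 3 with 1 library left out; the 1 that fell became 3 among genes chosen in the overexpression-labelled strain alone, 0 under a replicate block, 0 at an adjusted p under 0.01 and 0 to 1 with 1 library left out. In the overexpression-labelled strain against wild type, the 44 that rose became 75 among genes chosen without that strain, 167 among the 460 chosen in the deletion-labelled strain alone and 36 to 45 with 1 library left out, and the 5 that fell became 44 among those 460 and 3 to 6 with 1 library left out. Against the deletion-labelled strain, the 41 that rose became 68 among genes chosen without the overexpression-labelled strain, 238 among the 702 chosen in wild type alone and 35 to 41 with 1 library left out, and the 8 that fell became 55 among those 702, 5 at an adjusted p under 0.01 and 5 to 8 with 1 library left out.

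Of the 44 risen members, 42 were shared under a replicate block, 42 with RLE scaling, 40 with DESeq2 and 35 with limma-voom. Correlations of the deviations of replicate 1 between groups ran from -0.271 to 0.222, and 1 of 15 was over 0.1. Negative values of more than 0.1 in size were -0.168, -0.125, -0.172, -0.271 and -0.106. Replicate numbers thus gave no common pairing. Whether cultures were handled together in another order cannot be told from this. Of 28 named members called in the overexpression-labelled strain against wild type, 20 kept their call under every alternative run, and of the 2 named in the deletion-labelled strain 0 did; no called value changed sign, whereas 42 values of named members that were not called did. Across harvests, RLE scaling moved the median gene by 0.093, 0.143 and 0.111 and upper-quartile scaling by 0.162, 0.204 and 0.194 in the deletion-labelled, overexpression-labelled and wild type strains, and 2 of 270 list counts moved by over 1.5 times. The cause of these changes was not tested. Promoter motifs, their window and protein features were not run for want of sequences. Few counts at 17 h limit the ratios.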
